A study of Mus musculus with 12 samples.

Results

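Matrix genes and genes of early fibrogenic signalling, 10 in all, were followed in the liver RNA of 12 mice. They were chosen by name, as rows of the deposited table whose gene symbol is Timp1, Timp3, Col1a1, Col1a2, Col3a1, Col4a1, Col4a2, Sparc, Fn1 or Tgfb1, and all 10 were found, each once, among the 11289 genes of the table. The 4 control mice were set beside 4 mice given Con A and then PBS (Con A + PBS) and 4 mice given Con A and then human stromal cells (Con A + hWJ-MSCs). Con A, concanavalin A, is a plant lectin that activates T cells and injures the liver. It was injected once into the tail vein at 15 mg/kg. PBS alone or stromal cells in PBS followed by the same route 30 min after, and livers were taken at 24 h. All animals were C57BL/6J mice without any engineered allele, and the labels do not say what the control mice received in place of Con A. The labels give 2000000 cells per mouse, called hUC-MSCs there and hWJ-MSCs (from Wharton's jelly of the umbilical cord) in the study, and mice aged 8 to 10 weeks. The study's methods give fewer cells and younger, male mice.

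The matrix of a normal liver is sparse. Fibrillar collagens I and III are made mainly by stellate cells and portal fibroblasts, collagen IV forms the sheet-like basement membrane network around vessels and sinusoids, and fibronectin is both a plasma protein made by hepatocytes and a tissue glycoprotein laid down early after injury. TGF-beta 1 is the ligand best known for driving collagen production, and tissue inhibitors of metalloproteinases (TIMPs) limit the enzymes that break matrix down.

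The deposited value of a gene is a whole number that had already been made comparable between mice, since 9271 of the 11289 ranked values (82.1%) were equal in all 12 mice. It is not a read count, its depth is unknown, and no interval for counting error can be given. Every gene of the table reached 64 in at least 2 mice, so each of the 10 genes had passed this filter on low values. The differences below are on the log2(value + 1) scale with their standard error, from limma in one fit of the 12 mice, and a gene was called at an adjusted p below 0.05 (Benjamini-Hochberg over all 11289 genes) and a fold change above 1.5. The tissue label fitted the marker genes, with albumin (Alb) at the largest value of the table, 341028, in every mouse. In bulk liver, fewer cells of a type and less RNA per cell cannot be told apart, and mouse RNA cannot be told apart from any human reads that aligned to the mouse genome.

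After Con A + PBS, 4 of the 10 genes were called higher than in the control group and 0 lower by limma (also 0 lower at an unadjusted p below 0.05 and the same fold threshold, which 19.7% of all genes passed). They were Timp1, Col4a1, Fn1 and Col4a2. Among all genes, 19.5% were called higher and 19.2% lower. In the same 4 genes every Con A + PBS mouse lay above every control mouse, and over all genes 50.4% had groups that did not overlap. The median log2 difference of the 10 genes was 0.37, against 0.05 for all genes. Fibrillar collagens, Sparc, Timp3 and Tgfb1 did not pass the test.

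With hWJ-MSCs, Timp3 and Col4a1 were called lower than in the Con A + PBS group and 0 of the 10 genes higher by limma. At an unadjusted p below 0.05 and the same fold threshold, Col1a2 and Col3a1 were higher and Fn1 lower as well, where 8.06% of all genes were higher and 6.97% lower. Col4a2 had an unadjusted p of 0.0425 and stayed below the fold threshold. Among all genes, 4.38% were called lower and 4.2% higher, and 23.5% had groups that did not overlap, as these 2 did. The number of genes called in this comparison depended on single mice. Over all genes, 474 were higher and 495 lower with all mice, but 5 and 2 without Con A + PBS mouse 1. They were 8 and 10 without Con A + hWJ-MSCs mouse 2, and 4 and 3 without Con A + hWJ-MSCs mouse 3. Without Con A + PBS mouse 2 they were 846 and 729. The median log2 difference of the 10 genes was -0.24, against 0 for all genes. Against the control group, Timp1, Col4a1 and Col3a1 were called higher and Timp3 lower in Con A + hWJ-MSCs mice, where 13.6% of all genes were called higher and 13.1% lower. Timp1, Col4a1 and Timp3 had no overlap between these groups, as had 37.9% of all genes. The comparisons share mice, so their values are set side by side here and no overlap between them was tested.

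**Figure D1:**
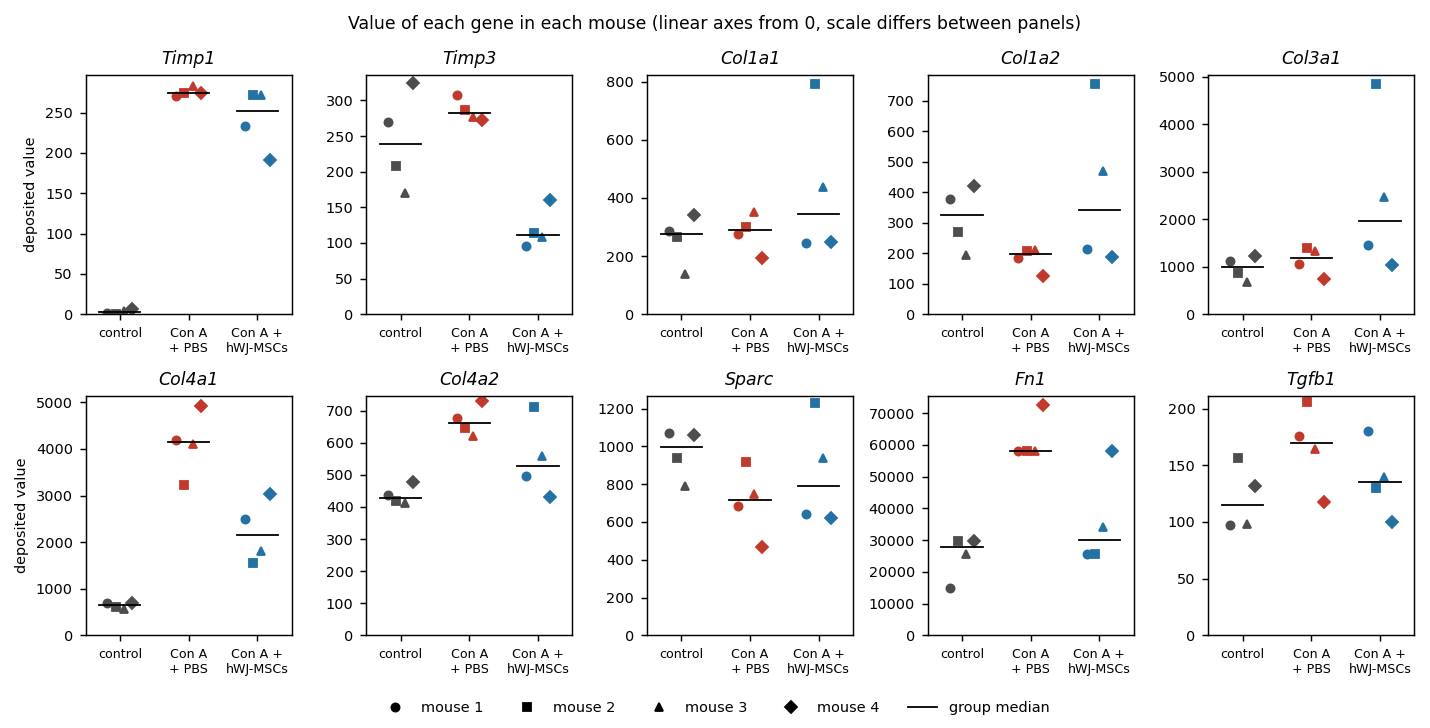
Deposited value (vertical axis, linear from 0, no unit) of each of the 10 genes in each mouse of the 3 groups, with marker shape for the mouse number and a line at the group median. Timp1 was at 0 to 6 in control mice and at 191 or more in every mouse given Con A, Timp3 was lowest in the 4 Con A + hWJ-MSCs mice, and the 3 fibrillar collagens were highest in mouse 2 of that group.

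**Figure D2:**
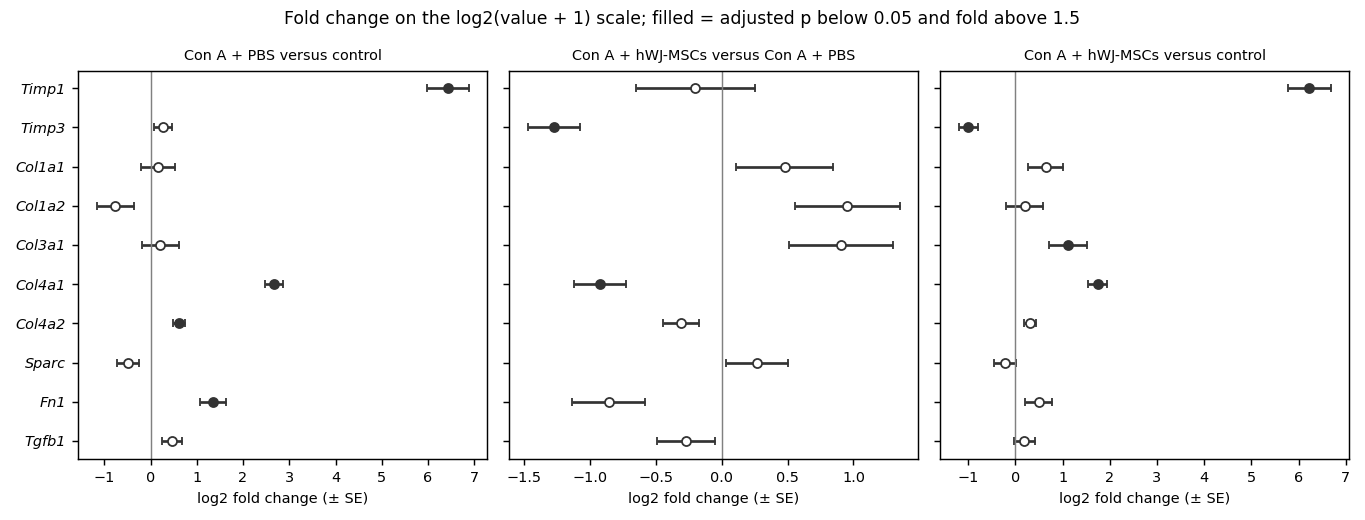
Log2 fold change with its standard error (horizontal axis, scale differing between the panels) of each gene in the 3 comparisons, where filled points are genes called. After Con A + PBS the filled points are Timp1, Col4a1, Col4a2 and Fn1, and with hWJ-MSCs against Con A + PBS they are Timp3 and Col4a1.

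The inhibitors Timp1 and Timp3 belong to one family. Timp1 is a soluble inhibitor known as an acute response gene of the injured liver, and Timp3 stays bound to the matrix and also inhibits ADAM sheddases such as the one that releases TNF. Timp1 lies on chromosome X (mm10, chrX:20870166-20874733, plus strand) within the annotated span of Syn1, which runs on the other strand. Timp3 lies on chromosome 10 (chr10:86300372-86349506, plus strand) within Syn3, again on the opposite strand. The bases directly upstream of both annotated genes, none of them in an annotated exon of the 2 genes, are shown because these paralogues moved differently. The sequences are those of RefSeq on GRCm38.p6, plus strand, 5′ to 3′, 250 bases at chrX:20869916-20870165 and 210 bases at chr10:86300162-86300371, with capitals marking a match to one of the searched motifs.
Timp1: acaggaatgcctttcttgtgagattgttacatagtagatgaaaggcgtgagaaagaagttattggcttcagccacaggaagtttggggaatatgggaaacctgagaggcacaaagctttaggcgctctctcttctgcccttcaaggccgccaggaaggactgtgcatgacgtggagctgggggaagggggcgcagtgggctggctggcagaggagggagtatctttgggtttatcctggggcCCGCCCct
Timp3: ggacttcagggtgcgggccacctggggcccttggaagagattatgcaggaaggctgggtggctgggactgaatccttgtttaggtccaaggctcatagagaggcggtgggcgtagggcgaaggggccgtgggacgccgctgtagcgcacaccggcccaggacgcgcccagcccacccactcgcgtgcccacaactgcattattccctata

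The motifs searched, on both strands, were AP-1 (TGANTCA), the SMAD palindrome (GTCTAGAC), the shorter SMAD element (CAGACA), the GC box (GGGCGG), STAT (TTCNNNGAA) and NF-kB (GGGANTTTC). The capitals in the Timp1 sequence are a GC box read on the other strand, and the Timp3 stretch held 0 matches. In windows from 250 bases before to 50 bases after the RefSeq start, available for 8 of the 10 genes, a GC box was found in 6 windows (Col1a2, Tgfb1, Col4a1, Col4a2, Timp3 and Timp1), with 6 matches in that of Tgfb1. It was found in 35.7% of all 32851 promoter windows. CAGACA was found in 3 windows, those of Col3a1, Col1a2 and Sparc, and in 21.0% of all windows. The other motifs had 0 matches in the 8 windows, and they occurred in 7.81% (AP-1), 8.3% (STAT), 1.11% (NF-kB) and 0.213% (SMAD palindrome) of all windows. These matches are letters in a window and not measured binding.

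Timp1 was listed at 2, 0, 4 and 6 in control mice 1 to 4, at 270, 274, 283 and 274 in Con A + PBS mice and at 233, 272, 272 and 191 in Con A + hWJ-MSCs mice. All 8 mice given Con A were far above all controls, and the 2 Con A groups overlapped. The log2 difference between Con A + PBS and control was 6.43 ± 0.45 (SE, limma adjusted p = 6e-07). Because the control values are near 0, this size depends on the number added before the logarithm, and with 10 in place of 1 it was 4.48. Between the Con A groups the log2 difference of Timp1 was -0.20 ± 0.45 (limma adjusted p = 0.783). Within the Con A + PBS group Timp1 varied with a coefficient of variation of 2.0%, and within Con A + hWJ-MSCs of 16.0%.

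Timp3 was at 270, 208, 170 and 325 in control mice, at 308, 287, 277 and 272 in Con A + PBS mice and at 96, 114, 109 and 160 in Con A + hWJ-MSCs mice. Control and Con A + PBS mice overlapped, whereas all 4 mice with hWJ-MSCs lay below all 8 others. The log2 difference with hWJ-MSCs was -1.27 ± 0.20 against Con A + PBS (2.42-fold lower, limma adjusted p = 0.0149) and -1.0 ± 0.20 against control (2.0-fold lower, limma adjusted p = 0.00171). After Con A + PBS it was 0.27 ± 0.20 (limma adjusted p = 0.25). The call against Con A + PBS was lost when Con A + PBS mouse 1, or Con A + hWJ-MSCs mouse 2 or 3, was left out, with log2 differences of -1.24, -1.26 and -1.24 and limma adjusted p of 0.0696, 0.0603 and 0.0547. The library kit as described does not mark strand, so strand cannot separate reads of Timp3 from reads of Syn3, a synapsin gene, where the genes overlap. Syn3 itself ranged from 37 to 103 in control mice, from 98 to 138 in Con A + PBS mice and from 90 to 160 in Con A + hWJ-MSCs mice. The groups overlapped, and the control median of 68 was below the medians of 112 and 142.5 in the Con A groups.

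The difference between the 2 inhibitors was also computed within each mouse. The log2 value of Timp1 minus that of Timp3 averaged -6.21 ± 1.16 (SD, n = 4) in control mice, -0.05 ± 0.10 after Con A + PBS and 1.02 ± 0.51 with hWJ-MSCs. All 3 comparisons between groups gave p = 0.0286 in a two-sided exact permutation test, the smallest that 4 against 4 mice allows, and an adjusted p of 0.0367 over the 9 such tests made. Since the values above already separate the groups, these tests restate that separation and are no further evidence, and Timp1 passed the filter on low values through the mice given Con A. The step between the Con A groups was 1.07 on the log2 scale.

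Collagen IV is a trimer built from the products of Col4a1 and Col4a2, which sit head to head on chromosome 8 (Col4a1, chr8:11198423-11312826, minus strand, and Col4a2, chr8:11312805-11449287, plus strand). Their annotated 5′ ends overlap by 22 bases. Col4a1 was at 698, 617, 565 and 690 in control mice, at 4190, 3227, 4104 and 4927 in Con A + PBS mice and at 2496, 1548, 1807 and 3043 in Con A + hWJ-MSCs mice. The 3 groups did not overlap, and the mice with hWJ-MSCs lay between the others. Its log2 difference was 2.67 ± 0.20 after Con A + PBS (6.34-fold higher, limma adjusted p = 8.6e-07) and 1.74 ± 0.20 in Con A + hWJ-MSCs against control (3.35-fold higher, limma adjusted p = 3.8e-05).

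With hWJ-MSCs, Col4a1 was 1.89-fold lower than in Con A + PBS, a log2 difference of -0.92 ± 0.20 (limma adjusted p = 0.0236). The lowest Con A + PBS mouse, at 3227, was close to the highest Con A + hWJ-MSCs mouse, at 3043. This call, too, was lost without Con A + PBS mouse 1 or Con A + hWJ-MSCs mouse 2 or 3, with log2 differences of -0.91, -0.76 and -0.84 and limma adjusted p of 0.0744, 0.0726 and 0.0681.

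Col4a2 was at 438, 420, 412 and 477 in control mice, at 678, 647, 620 and 731 in Con A + PBS mice and at 496, 710, 560 and 431 in Con A + hWJ-MSCs mice. All Con A + PBS mice were above all controls, and the mice with hWJ-MSCs spread over both ranges. The log2 difference after Con A + PBS was 0.61 ± 0.14 (1.53-fold higher, limma adjusted p = 0.00218). This lies just above the fold threshold, and without Con A + PBS mouse 4 the difference was 0.57 and the gene was no longer called. With hWJ-MSCs it was -0.31 ± 0.14 against Con A + PBS (limma adjusted p = 0.13) and 0.31 ± 0.14 against control (limma adjusted p = 0.0878).

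The 2 chains therefore rose by unequal amounts. Col4a1 minus Col4a2, on the log2 scale, averaged 0.55 ± 0.09 (SD, n = 4) in control mice, 2.60 ± 0.20 after Con A + PBS and 1.99 ± 0.74 with hWJ-MSCs. The step of 2.05 after Con A + PBS and the step of 1.44 in Con A + hWJ-MSCs against control both had p = 0.0286 in the two-sided exact permutation test (adjusted p = 0.0367). That is the smallest p possible here. Col4a1 alone already separated these groups, so the 2 tests restate that separation and are no further evidence. Between the Con A groups the step of -0.61 had p = 0.257 in the same exact test (adjusted p = 0.257). Level differences between 2 genes also depend on transcript length and sequence, so these are read as changes between groups and not as a ratio of chains.

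**Figure D3:**
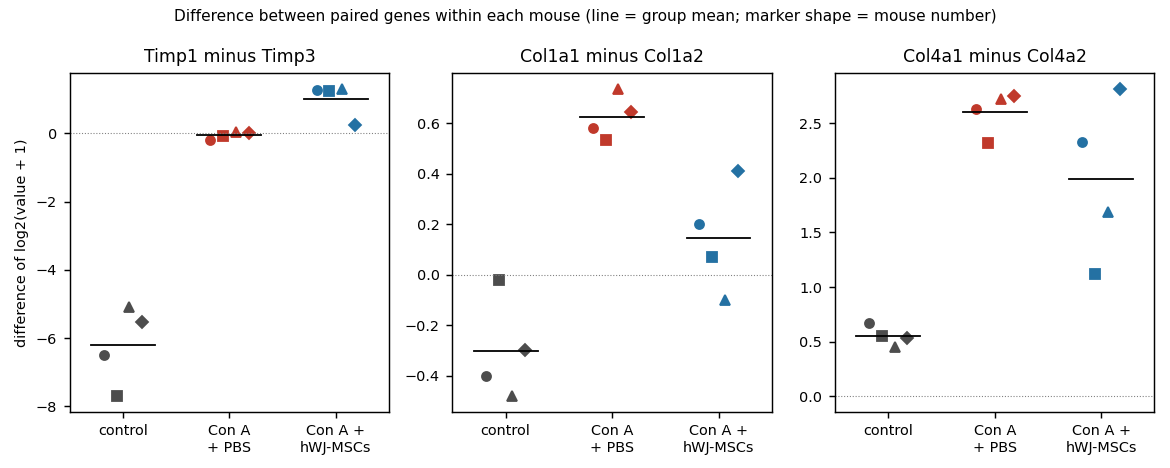
Difference of log2(value + 1) between 2 genes within each mouse (vertical axis) for the 3 groups, with a line at the group mean and marker shape for the mouse number. Timp1 minus Timp3 rose from control to Con A + PBS and again to Con A + hWJ-MSCs, Col4a1 minus Col4a2 was highest on average in Con A + PBS mice, and so was Col1a1 minus Col1a2.

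Fibrillar collagens I and III form the fibres of scar tissue. Col1a1 (chr11:94936224-94953042, plus strand) encodes the alpha 1 chain of collagen I, Col1a2 the alpha 2 chain and Col3a1 the chain of collagen III. The table lists Col1a2 by a short transcript of 850 bases (chr6:4504814-4516419, plus strand) and Col3a1 by a transcript annotated as a retained intron (chr1:45311538-45325018, plus strand). Whether the values cover these transcripts or the whole genes is not given in the sources used here.

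Col1a1 was at 286, 266, 138 and 342 in control mice, at 276, 301, 352 and 194 in Con A + PBS mice and at 246, 792, 438 and 250 in Con A + hWJ-MSCs mice. The 3 groups overlapped, and the highest value of all was that of Con A + hWJ-MSCs mouse 2. The log2 difference was 0.16 ± 0.37 after Con A + PBS (limma adjusted p = 0.723) and 0.48 ± 0.37 with hWJ-MSCs against Con A + PBS (limma adjusted p = 0.376). Without Con A + hWJ-MSCs mouse 2 the latter was 0.13.

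Col1a2 was at 378, 270, 193 and 421 in control mice, at 184, 208, 211 and 124 in Con A + PBS mice and at 214, 754, 470 and 188 in Con A + hWJ-MSCs mice. Con A + PBS mouse 1 and mouse 4 lay below every control, and the other Con A + PBS mice were at the lower end of the control range. The log2 difference was -0.76 ± 0.40 after Con A + PBS (limma adjusted p = 0.122, though called lower when the 8 mice compared were fitted alone) and 0.95 ± 0.40 with hWJ-MSCs against Con A + PBS (limma adjusted p = 0.111). Without Con A + hWJ-MSCs mouse 2 the latter was 0.58.

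Col3a1 was at 1120, 865, 682 and 1231 in control mice, at 1054, 1400, 1326 and 744 in Con A + PBS mice and at 1454, 4840, 2474 and 1034 in Con A + hWJ-MSCs mice. Mice 1, 2 and 3 with hWJ-MSCs exceeded every control and every Con A + PBS mouse, and mouse 4 lay within both ranges. The log2 difference was 0.21 ± 0.40 after Con A + PBS (limma adjusted p = 0.671), 0.91 ± 0.40 with hWJ-MSCs against Con A + PBS (limma adjusted p = 0.124), and 1.12 ± 0.40 in Con A + hWJ-MSCs against control (2.17-fold higher, limma adjusted p = 0.0384). That last call was lost in 6 of the 12 fits that left out 1 mouse, those without control mouse 1, 2 or 3, Con A + PBS mouse 1, or Con A + hWJ-MSCs mouse 2 or 3, and the smallest difference among the 12, without Con A + hWJ-MSCs mouse 2, was 0.71. It was also lost when the 8 mice compared were fitted alone. Against Con A + PBS, the difference was 0.50 without Con A + hWJ-MSCs mouse 2, and without mouse 4 it was 1.24 and the gene was called (limma adjusted p = 0.0429).

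Within each mouse, the 2 collagen I genes shifted against each other although neither was called. Col1a1 minus Col1a2 on the log2 scale averaged -0.30 ± 0.20 (SD, n = 4) in control mice, 0.62 ± 0.09 after Con A + PBS and 0.14 ± 0.21 with hWJ-MSCs. The step of 0.92 after Con A + PBS and the step of -0.48 with hWJ-MSCs against Con A + PBS both had p = 0.0286 in the two-sided exact permutation test (adjusted p = 0.0367). Against control, the step of 0.45 in Con A + hWJ-MSCs mice had an exact p of 0.0571 (adjusted p = 0.0643). In every Con A + PBS mouse Col1a1 was above Col1a2, and in every control mouse below it.

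Sparc, on chromosome 11 (chr11:55394500-55420080, minus strand), encodes a collagen-binding glycoprotein also called osteonectin. It was at 1072, 938, 793 and 1059 in control mice, at 686, 918, 746 and 466 in Con A + PBS mice and at 641, 1231, 938 and 622 in Con A + hWJ-MSCs mice. The Con A + PBS mice were on average lower than controls with overlap, a log2 difference of -0.49 ± 0.24 (limma adjusted p = 0.0986), and without Con A + PBS mouse 2 the difference was -0.63 and the gene was called. With hWJ-MSCs the log2 difference against Con A + PBS was 0.27 ± 0.24 (limma adjusted p = 0.445), and 0.075 without Con A + hWJ-MSCs mouse 2.

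The fibrillar collagens and Sparc moved together from mouse to mouse inside the groups. After subtraction of each group's mean, the Pearson correlation over the 12 mice was 0.96 between Col1a1 and Col1a2, 0.94 between Col1a1 and Col3a1, 0.98 between Col1a2 and Col3a1, and 0.89, 0.92 and 0.94 between Sparc and these genes in turn. Col4a1 went the other way, with -0.57, -0.68 and -0.77 against the same collagens and -0.58 against Col4a2. All genes of a mouse share a library and a normalization, so these are descriptions. Mouse 2 was highest of its group in Col1a1, Col1a2, Col3a1 and Sparc among Con A + hWJ-MSCs mice, and mouse 4 lowest in all 4 genes among Con A + PBS mice. Control mouse 3 was lowest in all 4 among controls.

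**Figure D4:**
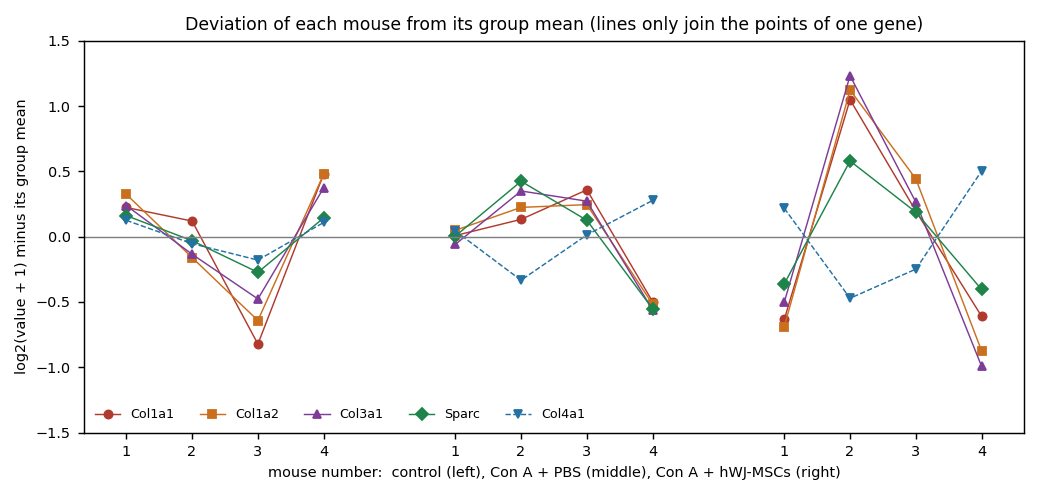
Deviation of log2(value + 1) from the group mean (vertical axis) in each mouse (horizontal axis, mouse number within each group) for Col1a1, Col1a2, Col3a1, Sparc and Col4a1. The 4 first genes peak together in Con A + hWJ-MSCs mouse 2, where Col4a1 is at the lowest value of its group, 1548.

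The cells that make these proteins also differed between groups by their markers. Of 13 stellate cell and fibroblast markers in the table, 8 were called lower and 1 (Thy1) higher after Con A + PBS, with a median log2 difference of -1.26. These counts and the endothelial counts after Con A + PBS below stand beside 19.2% of all genes called lower and 19.5% higher. Thy1 was below 64 in every control mouse, so its call is partly set by the filter on low values. The 13 markers summed to 2912 to 3806 in the control group, 1155 to 1379 after Con A + PBS and 1235 to 2210 with hWJ-MSCs. The highest sum of the last group, 2210, was again that of mouse 2. No stellate marker but Ngfr was at 0 in any mouse, and Ngfr was at 0 in 1 Con A + PBS mouse. Against Con A + PBS, 2 of these 13 markers were called higher with hWJ-MSCs and 0 lower. Of 14 endothelial markers, 1 was called higher and 2 lower in the same comparison. Among all genes, 4.2% were called higher and 4.38% lower there. The number of genes called in this comparison depended on single mice, as given above, and these marker counts carry the same limit. Endothelial markers, of which 9 of 14 were called lower and 1 higher after Con A + PBS, summed to 4864 to 6690 in control mice, 2441 to 3429 after Con A + PBS and 2780 to 3916 with hWJ-MSCs, with none at 0 in any mouse. Their part in the values of the collagens, Sparc and Timp3 was not tested.

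Fn1, on chromosome 1 (chr1:71585520-71653172, minus strand), encodes fibronectin. It was at 15018, 29590, 25747 and 29590 in control mice, at 57938, 57938, 57938 and 72623 in Con A + PBS mice and at 25747, 25747, 34256 and 57938 in Con A + hWJ-MSCs mice. All Con A + PBS mice lay above all controls. Mice 1, 2 and 3 with hWJ-MSCs lay below the Con A + PBS range, and mouse 4 was at its lower edge. The log2 difference was 1.35 ± 0.28 after Con A + PBS (2.54-fold higher, limma adjusted p = 0.00137) and -0.86 ± 0.28 with hWJ-MSCs against Con A + PBS (1.81-fold lower, limma adjusted p = 0.0568), which missed the threshold. It passed when Con A + hWJ-MSCs mouse 4 (limma adjusted p = 0.0221) or control mouse 1 (limma adjusted p = 0.0317) was left out. High values in the table form coarse ladders, in which sets of genes exchange a fixed series of values between mice. The 16 genes of the Fn1 ladder have 12 values between 15018 and 72623, with none between 57938 and 72623, so equal values of Fn1 in 3 mice are no measure of their likeness. Of 10 hepatocyte markers, 3 were called lower, 0 higher and 7 not called after Con A + PBS, with a median log2 difference of -0.13. Among all genes, 19.2% were called lower. The markers summed to 1029001 to 1256696 in control mice, 761465 to 824571 after Con A + PBS and 808472 to 854184 with hWJ-MSCs. Such a sum weighs the highest genes most, and high values move in coarse steps, so it does not measure a change of all 10 markers. The part of the hepatocyte markers in the value of Fn1 was not tested.

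Tgfb1, on chromosome 7 (chr7:25687002-25705077, plus strand), encodes the ligand TGF-beta 1. It was at 97, 156, 98 and 132 in control mice, at 176, 206, 164 and 118 in Con A + PBS mice and at 180, 130, 140 and 100 in Con A + hWJ-MSCs mice. Con A + PBS mice 1, 2 and 3 exceeded every control, and mouse 4 did not. The log2 difference was 0.46 ± 0.22 after Con A + PBS (limma adjusted p = 0.0951), and -0.27 ± 0.22 with hWJ-MSCs against Con A + PBS (limma adjusted p = 0.398). Without control mouse 2 or without Con A + PBS mouse 4 the gene was called higher after Con A + PBS. Tgfb1 is expressed by leukocytes, and of 15 macrophage and monocyte markers 4 were called higher and 11 lower after Con A + PBS, while the 7 neutrophil markers in the table, of 8 listed, were called higher. Neutrophil markers near 0 in control mice could enter the table only through the mice given Con A, so this count is partly set by the filter on low values. The same limit holds for 1 of the 4 macrophage and monocyte markers called higher, which was below 64 in every control mouse. Among all genes, 19.5% were called higher and 19.2% lower. The macrophage and monocyte markers summed to 6753 to 10733 in control mice, 2742 to 3717 after Con A + PBS and 1731 to 4033 with hWJ-MSCs. The neutrophil markers summed to 1087 to 5038, 73979 to 341912 and 58865 to 74407 in the same order, mostly from Lcn2, which hepatocytes also make in the acute phase. Without Lcn2, an alternative chosen after seeing the data, they summed to 67 to 153 in control mice, 884 to 1868 after Con A + PBS and 827 to 1725 with hWJ-MSCs. Mmp8 was at 0 in 2 control mice and Retnlg in 1. Their part in the value of Tgfb1 was not tested.

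Genes whose pattern over the 12 mice was most like that of a member were found by Pearson correlation of log2(value + 1), as a description. For Timp1 they were Nlrp12 (0.99), Alpl (0.98) and Fez2 (0.98), and for Col4a1 Irak3 (0.99), Syt12 (0.99) and Kctd17 (0.99). These correlations include the step between control and Con A mice. For Tgfb1 they were Laptm5 (0.93), 4632428N05Rik (0.92) and Itgb2 (0.88), and for Col1a1 Maged2 (0.82), Oxct1 (0.82) and Pld3 (0.81).

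Other matrix genes were counted in 6 lists, which hold none of the 10 genes above. Their counts stand beside the shares of all genes given above, 19.5% called higher and 19.2% lower after Con A + PBS, and 4.2% and 4.38% with hWJ-MSCs against Con A + PBS. Every list's count of genes called with hWJ-MSCs against Con A + PBS, in either direction, was 0 without Con A + PBS mouse 1 and also without Con A + hWJ-MSCs mouse 2 or mouse 3. Of the genes called higher after Con A + PBS, 2 collagen and basement membrane genes, 2 genes for collagen folding and processing, 7 proteases and inhibitors and 2 glycoproteins, among them Col12a1, Lox, Mmp8, Mmp9 and Thbs1, were below 64 in every control mouse. They were in the table only through the mice given Con A, so their calls are partly set by the filter on low values. Genes called lower that reached 64 only in control mice, such as Fbln5, carry the same limit. They were not counted, and the counts of genes called lower are partly set by the filter as well. Of 24 collagen and basement membrane genes in the table, 5 were called higher and 13 lower after Con A + PBS, with a median log2 difference of -0.81. Col14a1, a fibril-associated collagen, fell from 907.0 ± 237.0 to 99.8 ± 20.6 (SD, n = 4, limma adjusted p = 3.4e-06). Col12a1, another fibril-associated collagen, rose from 57.5 ± 5.26 to 421 ± 103.0 (limma adjusted p = 2.5e-06), and Nid1, which links laminin to collagen IV, rose from 363 ± 96.9 to 2437 ± 950.0 (limma adjusted p = 8.9e-06). With hWJ-MSCs against Con A + PBS, 4 of the 24 were called lower and 0 higher, and 3 were higher at an unadjusted p below 0.05 and the same fold threshold. The called genes included Nid1 (930.8 ± 261.0, limma adjusted p = 0.0218) and Col12a1 (196 ± 71.3, limma adjusted p = 0.0241).

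Of 18 genes for collagen folding, processing and crosslinking, 11 were called higher and 2 lower after Con A + PBS, with a median log2 difference of 0.99. The 3 that changed most were Lox, which crosslinks collagen (9.0 ± 1.15 to 99.2 ± 26.0, limma adjusted p = 1e-06), the transglutaminase Tgm2 (log2 difference 2.71, limma adjusted p = 5.2e-05) and the prolyl hydroxylase subunit P4ha2 (84.8 ± 25.6 to 486 ± 51.2, limma adjusted p = 5.4e-06). With hWJ-MSCs 4 of the 18 were called lower than in Con A + PBS and 0 higher, Tgm2 by -1.46 and P4ha2 by -1.12 on the log2 scale (limma adjusted p of 0.0272 and 0.0249). At an unadjusted p below 0.05 and the same fold threshold, 1 of the 18 was higher.

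Of 25 matrix proteases and inhibitors, 13 were called higher and 6 lower after Con A + PBS, and 1 higher and 3 lower with hWJ-MSCs against Con A + PBS. The neutrophil collagenase Mmp8 went from between 0 and 6 to between 56 and 96, and the gelatinase Mmp9 from between 1 and 10 to between 108 and 138. The single gene of this list called higher with hWJ-MSCs was the metalloprotease Adamts7, at 2 to 34 in Con A + PBS mice and 32 to 77 with hWJ-MSCs (limma adjusted p = 0.0379).

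Of 21 matrix glycoproteins and proteoglycans, 4 were called higher and 7 lower after Con A + PBS. Fbln5, an elastic fibre protein, fell by 3.43 on the log2 scale. It was at 84 to 134 in control mice, 6 to 15 after Con A + PBS and 6 to 21 with hWJ-MSCs. It was thus in the table only through the control mice, and its fall is partly set by the filter on low values. Thrombospondin 1 (Thbs1), an activator of latent TGF-beta, rose by 2.07 and the proteoglycan versican (Vcan) by 1.92. With hWJ-MSCs 1 of the 21, Thbs1, was called, from 104 ± 36.0 to 41.5 ± 7.23 (limma adjusted p = 0.0245). Thbs1 was at 16 to 30 in control mice, 68 to 154 after Con A + PBS and 33 to 50 with hWJ-MSCs. It was thus in the table only through the Con A + PBS mice. Both its rise and its fall are therefore partly set by the filter on low values. Of 27 TGF-beta signalling genes, 6 were called higher and 3 lower after Con A + PBS, and 0 were called with hWJ-MSCs against Con A + PBS by limma (4 lower and 0 higher at an unadjusted p below 0.05 and the same fold threshold). The latent TGF-beta binding protein gene Ltbp4 fell by 3.00 on the log2 scale, and the target genes Id1 and Pmepa1 rose by 1.60 and 1.28. Of 21 matrix receptors, 7 were called higher and 5 lower after Con A + PBS, with the integrin Itga8 (-3.73) and the syndecan Sdc2 (-1.18) lower and the collagen receptor Ddr1 (1.53) higher. With hWJ-MSCs 7 of the 21 were called lower than in Con A + PBS and 0 higher (2 higher at an unadjusted p below 0.05 and the same fold threshold), among them vinculin (Vcl, -1.27, limma adjusted p = 0.0188) and the integrin Itgb3 (-1.05, limma adjusted p = 0.0188).

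**Figure D5:**
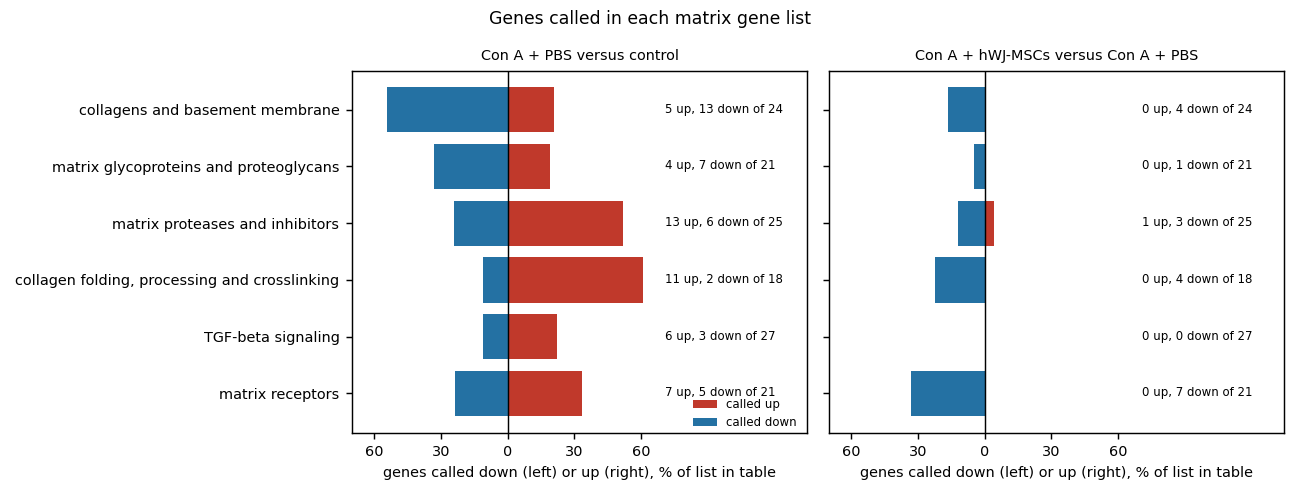
Share of the genes in the table (horizontal axis, percent) that were called lower (left of 0) or higher (right of 0) in each of 6 matrix gene lists, for Con A + PBS against control and Con A + hWJ-MSCs against Con A + PBS, with the counts at the right. Calls in both directions are seen after Con A + PBS, and with hWJ-MSCs nearly all calls are lower, with 7 of 21 matrix receptors.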

How the data were processed

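Liver RNA of 12 mice, 4 in each of 3 groups taken from the labels, was sequenced. The authors deposited for each of 11289 genes and each mouse a score, a whole number already normalized between mice and not a read count, although the file is titled as counts. Column totals were between 17649654 and 17657159, the 10 highest genes of each mouse share 1 value, and depth is unknown. The submitters' processing notes name Bowtie2 2.2.1, RSEM 1.2.18 and mm10, without their order or the normalization.

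The model was limma (version 3.58.1, R 4.3.3) on log2(value + 1) (lmFit, eBayes with a trend, no covariate, 12 mice in one fit). A call needed an adjusted p below 0.05 (Benjamini-Hochberg, all genes) and a fold change above 1.5. Differences between 2 genes within a mouse were compared by two-sided exact permutation tests (scipy 1.17.1), adjusted over 9 tests. Each mouse was 1 replicate, and nothing says whether mice shared a cage or a day. The members, gene lists, tests and rules were chosen with earlier results of these data known. From each matrix list the text names up to 3 genes with the largest change among those called after Con A + PBS, and up to 2 among those called with hWJ-MSCs. Some results that meet this rule are not reported here. The fit was tested on simulated data with known changes. Gene positions came from the file and matched GENCODE M21 (GRCm38), and promoter windows from RefSeq (GRCm38.p6). Apart from these windows, no genome sequence was used here, and no protein sequence. The alternatives were another offset, a filter, centring, eBayes without a trend, 8 mice, the unadjusted p, a fold above 2, the replicate number as a block and each mouse left out. Count tools were not run on these scores.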

Additional observations from a re-analysis of the deposited data

Results flagged for a closer look

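Of the 30 groups of 4 mice examined (10 genes in 3 groups), 1 held a mouse far from the others. Fn1 in the Con A + PBS group was 72623 in mouse 4 and 57938 in the other mice, so the gap was the whole range of the group. Chance flags about 1 in 20 groups. The other 3 values are equal because high genes in this table take a fixed series of values.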

How the results depend on the processing

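Members called lower after Con A + PBS were 0 in the main test and 1 (Col1a2) with only the 8 mice compared, and 0 to 1 when a mouse was left out. With hWJ-MSCs against Con A + PBS, members called higher were 0, but 2 at the unadjusted p with the same fold threshold, and 0 to 1 without 1 mouse. Members called lower were 2, but 1 at a fold change above 2, and 0 to 3 without 1 mouse. Against control, members called lower with hWJ-MSCs were 1, but 0 at a fold change above 2. With each mouse left out in turn, the log2 difference of Col1a1 after Con A + PBS ranged from -0.11 (without control mouse 3) to 0.33, and that of Col1a2 with hWJ-MSCs against control from -0.18 (without Con A + hWJ-MSCs mouse 2) to 0.49, with -0.02 without control mouse 3. None of these genes was called in the comparison whose direction turned. Of the gene list counts, 70 of 792 moved by over 1.5 times with 1 mouse left out and 64 of 528 under the other settings. The cause was not tested.

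The mice carry the same replicate numbers in each group but are different animals, and their deviations from the group means correlated between -0.12 and 0.38, above 0.1 in 4 of 12 pairs. With the replicate block Fn1 was called lower with hWJ-MSCs (limma adjusted p = 0.0275), and calls over all genes there were 679 higher and 618 lower, against 474 and 495 without it. The differences between 2 genes kept their direction and, where tested, their side of the threshold with an offset of 10 (median centring cannot change them), and moved by less than 1 SD with any mouse left out, where no test was made. The planned count test was not run because the values are not counts. Without depth, low values such as those of Timp1 in control mice have no stated precision.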

Other observations

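The genes whose mouse-to-mouse deviations were most like those of Col1a1, Col1a2 and Col3a1 together were listed after their values were seen, as a description. Besides Sparc (r = 0.93 over the 12 mice), the 10 highest held the biglycan gene Bgn (0.92), the collagens Col6a1 (0.92) and Col5a1 (0.92), the secreted matrix protein gene Ccdc80 (0.92), the thrombin receptor gene F2r (0.93) and the endothelial lectin gene Clec14a (0.94). In Con A + hWJ-MSCs mice 1 to 4, Col5a1 was at 114, 274, 148 and 98, Bgn at 493, 968, 621 and 391 and Col6a1 at 169, 368, 302 and 162, each with mouse 2 highest and mouse 4 lowest. Among the same 10 genes, Pkhd1 (0.94), Maged2 (0.93) and Ccdc80 had mouse 2 highest and mouse 1 lowest. Among the stellate cell and fibroblast markers, r was 0.88 for Pdgfrb, 0.83 for Pdgfra, 0.82 for Colec11 and 0.81 for Cygb, and the lowest of the 13 were 0.11 for Reln, 0.08 for Tagln and -0.32 for Hand2.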
